A study of Mus musculus with 6 samples.

Results

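Adipogenic regulator and marker genes were followed in mouse cells on day 3 of reprogramming with or without Rnf20, which encodes the E3 ligase for monoubiquitination of histone H2B. Members were taken by gene symbol from a list of 10 names. Of these, 9 were rows of the deposited count table of 16982 genes: Cebpb, Cebpd, Pparg, Cebpa, Fabp4, Lpl, Cd36, Plin2 and Dlk1. The last name, Pref1, was no symbol in the table, and the RefSeq gene table gives pref-1 as an older name of Dlk1, so that protein was followed through Dlk1. All 9 had enough counts to be tested.

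The 6 libraries were 3 wild type (WT) and 3 Rnf20-/- (knockout) libraries of cells labelled reprogrammable cells, on a C57BL/6 strain background, and the labels call all of them untreated. By the study's methods the cells were mouse embryonic fibroblasts (MEF) from midgestation embryos of Rnf20 Flox/Flox; Tamoxifen-cre mice, in which a Cre recombinase expressed in every tissue acts once tamoxifen is given. Knockout cells had received 4-OH tamoxifen for at least 3 days, and whether WT cells also received it was not given in the sources used here. Both genotypes carried retroviral OCT4, SOX2, KLF4 and C-MYC and were replated onto mitomycin C-treated MEF feeder cells, which can add their own RNA. The labels do not say whether the 3 libraries of a genotype came from separate cultures or embryos, so the p-values measure only the spread between these libraries. In bulk RNA, fewer cells of a type and less RNA per cell cannot be told apart.

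Adipogenesis turns a fibroblast-like preadipocyte into a lipid-storing adipocyte through a relay of transcription factors. C/EBPβ and C/EBPδ act early and switch on PPARγ and C/EBPα, which then maintain each other and drive the genes of lipid uptake, binding and storage. DLK1, the transmembrane protein also called PREF1, holds preadipocytes undifferentiated. MEF are a classical model in which this programme can be induced with hormones, and no adipogenic hormone mix is named for these cells.

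Each library held between 20545442 and 21746898 counts. Rnf20 itself stood at 107, 107 and 106 CPM (counts scaled to a common depth by edgeR's TMM method) in the WT libraries and at 18.7, 18.5 and 16.4 CPM in the knockout libraries, which was 16.8% of the WT mean (log2 fold change -2.57 ± 0.08 SE, adjusted p = 0.000163 by edgeR's quasi-likelihood test). Knockout replicate 3 stood apart from its group. Between libraries of one genotype the chi-square per gene, which is near 1 where counts differ by sampling alone, was 6.04 to 8.92 among the WT pairs and 8.57 between knockout replicates 1 and 2, but 92.4 and 101 between knockout replicate 3 and the other two. Each member is therefore given with and without that library. Fibroblast markers were abundant in both genotypes, and the 12 of them summed to between 27564 and 29917 CPM in WT libraries and to 27196, 33587 and 18364 CPM in knockout libraries.

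Cebpa and Dlk1 fell in knockout cells, to 28.7% and 16.1% of their WT means, and no member rose at an adjusted p under 0.01. With all libraries, the members thus counted 2 of 9 lower, against 4.89% of all 13386 genes tested, and 0 of 9 higher, against 4.98% of all genes. The same 2 genes also met the study's thresholds, which further ask for a log2 fold change over 1 in size and a mean FPKM (the authors' level per gene length and depth) above 1 in a genotype. Those thresholds were met in the knockout-lower direction by 2.08% of all genes and in the knockout-higher direction by 1.5%, with 0 members. Beside the 0 members higher by edgeR, 4 had an unadjusted p under 0.05, as did 3016 of 13386 genes in that direction. DESeq2 placed 2 members higher at that adjusted threshold, Cebpd and Plin2, and 1842 of 13363 genes. It placed 3 members lower, Cebpa, Lpl and Dlk1, and 1755 genes.

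By library, 4 members (Cebpb, Cebpd, Pparg and Plin2) had all knockout libraries above all WT libraries, a separation seen in that direction for 26.6% of all genes. Cebpa, Lpl and Dlk1 had all knockout libraries below, as did 28.2% of all genes, and Fabp4 and Cd36 overlapped. The log2 fold change was positive for 5 members and negative for 4. Their median, 0.48, was the value of Pparg, which did not pass, beside a median of -0.00032 over all genes tested. Knockout replicate 3 lay above knockout replicates 1 and 2 for 6 members and below them for 3. The share of all genes that did so was not computed, and this library stood apart over all genes as well. It differed from their mean by more than 1 on the log2 scale for 5 of the 9 members and for 11.5% of all genes tested.

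Without knockout replicate 3 the count was 3 of 9 higher (Cebpb, Cebpd and Plin2), against 16.4% of 13529 genes tested, and 3 of 9 lower (Cebpa, Lpl and Dlk1), against 16.7%. Pparg, Fabp4 and Cd36 did not pass in that fit either. The direction of these 6 genes was the same in either fit.

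**Figure D1:**
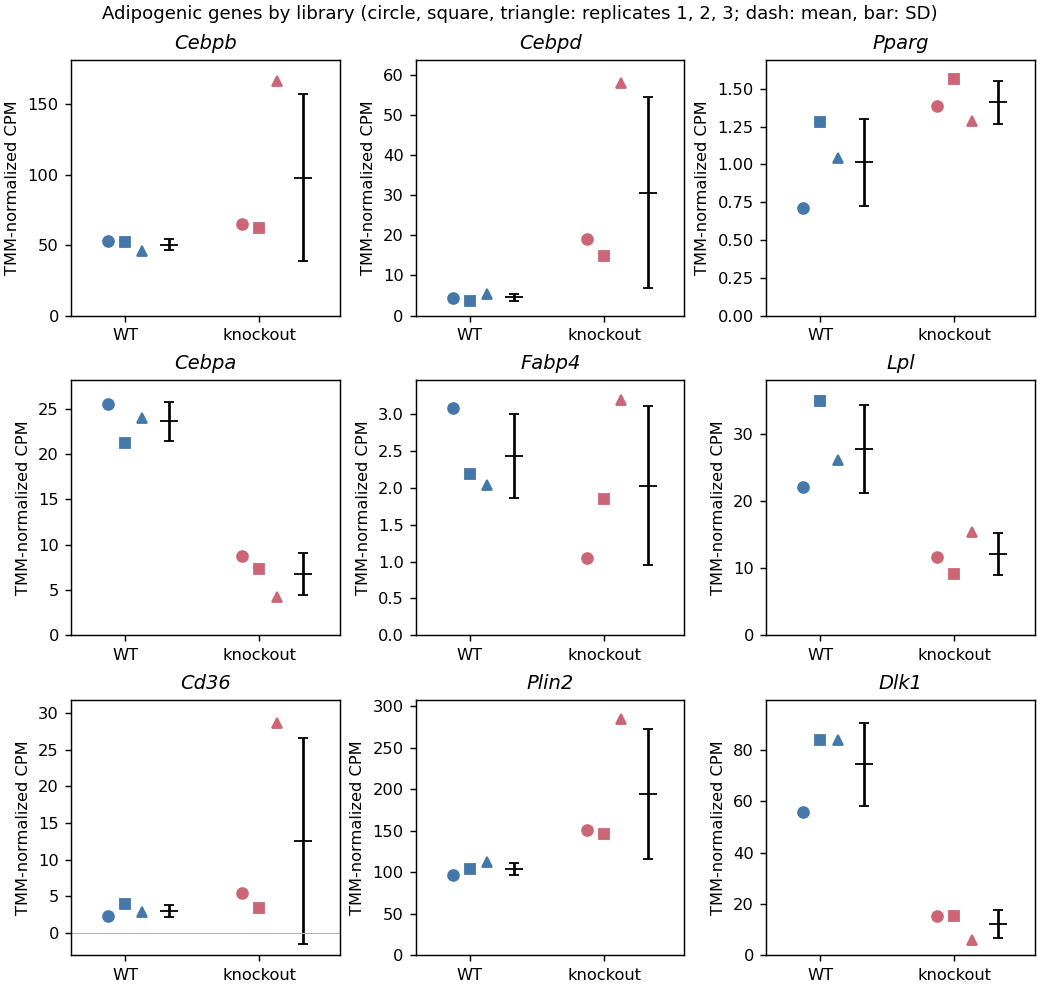
TMM-normalized CPM of the 9 adipogenic genes in each WT (blue) and knockout (red) library, with circles, squares and triangles for replicates 1, 2 and 3 and dashes with bars for the mean and SD of 3 libraries. Cebpa and Dlk1 are lower in each knockout library than in any WT library, and the knockout replicate 3 triangle lies far above the other knockout points for Cebpb, Cebpd, Cd36 and Plin2.

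Promoters of the members the results turn on are shown first. RefSeq's promoter table for GRCm38.p6 held an entry for 6 of the 9 members, with 8 windows in all, and the 250 bases before each transcription start were read 5′ to 3′ on the gene's strand. The pair that fell, Cebpa and Dlk1, is shown beside Cebpb, the early factor that did not fall, and the most downstream of the listed Pparg starts. Capitals mark the letters searched on both strands, which were a C/EBP motif spelled TTGCNNAA, the consensus PPAR response element, a TATA box spelled TATAAA, an E-box spelled CACGTG, a GC box spelled GGGCGG and the CCAAT box.
Cebpa, chr7:35119043-35119292, plus strand: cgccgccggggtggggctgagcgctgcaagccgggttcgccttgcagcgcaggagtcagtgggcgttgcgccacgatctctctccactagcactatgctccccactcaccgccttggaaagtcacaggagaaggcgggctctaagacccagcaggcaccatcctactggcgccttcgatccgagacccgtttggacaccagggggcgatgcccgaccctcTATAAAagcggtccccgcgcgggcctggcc
Dlk1, chr12:109452573-109452822, plus strand: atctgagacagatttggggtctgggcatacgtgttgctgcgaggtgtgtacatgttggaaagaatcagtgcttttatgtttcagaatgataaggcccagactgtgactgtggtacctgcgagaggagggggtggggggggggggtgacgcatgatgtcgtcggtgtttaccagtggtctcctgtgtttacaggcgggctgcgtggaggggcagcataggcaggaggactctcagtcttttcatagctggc
Cebpb, chr2:167688665-167688914, plus strand: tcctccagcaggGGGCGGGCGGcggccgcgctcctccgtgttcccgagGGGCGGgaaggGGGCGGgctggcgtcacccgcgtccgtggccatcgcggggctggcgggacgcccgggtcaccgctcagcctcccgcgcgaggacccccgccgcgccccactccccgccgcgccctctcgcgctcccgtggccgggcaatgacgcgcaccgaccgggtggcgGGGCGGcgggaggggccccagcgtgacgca
Pparg, chr6:115421816-115422065, plus strand: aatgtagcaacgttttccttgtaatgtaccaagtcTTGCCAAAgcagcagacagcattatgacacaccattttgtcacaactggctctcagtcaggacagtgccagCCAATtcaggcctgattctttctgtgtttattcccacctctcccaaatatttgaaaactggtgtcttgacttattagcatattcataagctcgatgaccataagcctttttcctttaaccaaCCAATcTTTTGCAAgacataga

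The Cebpa window held 1 TATA box, a motif present in 12.4% of the 32851 promoters searched, and the Dlk1 window held none of the 6 motifs. Cebpb had 5 GC boxes, of which a pair overlapped, and 32.7% of all promoters held at least 1. The Pparg window shown had 2 C/EBP motifs, found in 9.56% of all promoters, and 2 CCAAT boxes, found in 33.8%. No other listed window had a C/EBP motif, those at the other Pparg starts included. None of the 8 windows had an E-box (6.02% of all promoters) or the PPAR response element (0.0335%). A match describes letters only, and no binding was measured at these windows.

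The early regulators were higher in all 3 knockout libraries. Cebpb (C/EBPβ, chromosome 2, 167688915 to 167690418 on GRCm38, an intronless gene) stood at 52.9, 52.0 and 46.0 CPM in WT libraries and at 65.2, 61.8 and 166.3 CPM in knockout libraries. All knockout libraries were above WT, knockout replicates 1 and 2 by a mean of 1.26-fold and knockout replicate 3 by 3.31-fold. Its log2 fold change was 0.96 ± 0.38 (SE, n = 3 libraries per genotype), and it did not pass edgeR's quasi-likelihood test (adjusted p = 0.0951). Without knockout replicate 3 it was smaller, 0.34, and passed (adjusted p = 0.00412, with a range of 0.00412 to 0.239 over all alternatives).

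Cebpd (C/EBPδ, chromosome 16, 15887286 to 15891031) showed the highest fold among the members. Its WT libraries held 4.47, 3.65 and 5.36 CPM and its knockout libraries 19.0, 14.8 and 57.9 CPM. The groups were well apart even without knockout replicate 3, at 3.77-fold for the mean of knockout replicates 1 and 2 and 12.9-fold for replicate 3. The log2 fold change was 2.76 ± 0.55 (SE, n = 3 per genotype) with an adjusted p of 0.0130 in edgeR's test, just over the threshold. Without knockout replicate 3 it was 1.91 and passed (adjusted p = 1.87e-05, with a range of 1.82e-07 to 0.0624 over all alternatives). Exons of Spidr lie on the opposite strand over part of Cebpd, and whether counting used strand was not given. Spidr had 24.9, 27.4 and 22.8 CPM in WT libraries and 19.4, 19.5 and 35.4 CPM in knockout libraries. It was below WT in knockout replicates 1 and 2 and above WT in knockout replicate 3, and its part in the Cebpd counts was not tested.

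The late regulators did not share a direction. Cebpa (C/EBPα, chromosome 7, 35119293 to 35121928, also intronless) had 25.5, 21.3 and 24.0 CPM in WT libraries and 8.73, 7.36 and 4.19 CPM in knockout libraries. Each knockout library was below each WT library, and knockout replicate 3 was the lowest at 0.521 of the mean of the others. The mean fell from 23.6 ± 2.16 to 6.76 ± 2.33 CPM (SD, n = 3), a log2 fold change of -1.80 ± 0.26 (SE, adjusted p = 0.00561 by edgeR's test). The call held without knockout replicate 3 (-1.55, adjusted p = 7.32e-06). It was lost when any other library was left out, with adjusted p-values of 0.0111 to 0.0368. In those fits only 1 to 63 of all genes were called lower, beside 655 with all libraries. The unadjusted p of Cebpa in them was 0.000213 to 0.00155 by edgeR's test. Exons of an antisense gene, Gm45091, overlap Cebpa, as those of Tmem189 overlap Cebpb, and neither was a row of the count table. Cebpa was lower in all 12 alternatives, in which the log2 fold change lay between -2.03 and -1.55.

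Pparg (PPARγ, the receptor that adipocyte differentiation depends on, chromosome 6, 115360951 to 115490399) was low in both genotypes. It had 15, 27 and 22 counts in WT libraries and 29, 33 and 27 counts in knockout libraries. On the CPM scale the knockout libraries lay just above WT, with 1.38, 1.57 and 1.29 against 0.713, 1.28 and 1.04. Exact Poisson intervals of 95%, which cover counting error only, ran from 8.4 to 24.7 counts for WT replicate 1 and from 22.7 to 46.3 counts for knockout replicate 2, the lowest and highest libraries. In the authors' FPKM the genotypes overlapped, with 0.371, 0.791 and 0.928 in WT libraries and 0.845, 0.906 and 0.711 in knockout libraries. On the counts, the log2 fold change was 0.48 ± 0.31 (SE, adjusted p = 0.268 by edgeR's test), and it passed under none of the 12 alternatives, with 0.54 (adjusted p = 0.242) without knockout replicate 3, 0.28 without WT replicate 1 and a range of 0.227 to 0.563 in adjusted p. At this depth and spread the counts do not settle whether Pparg differed between genotypes.

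**Figure D2:**
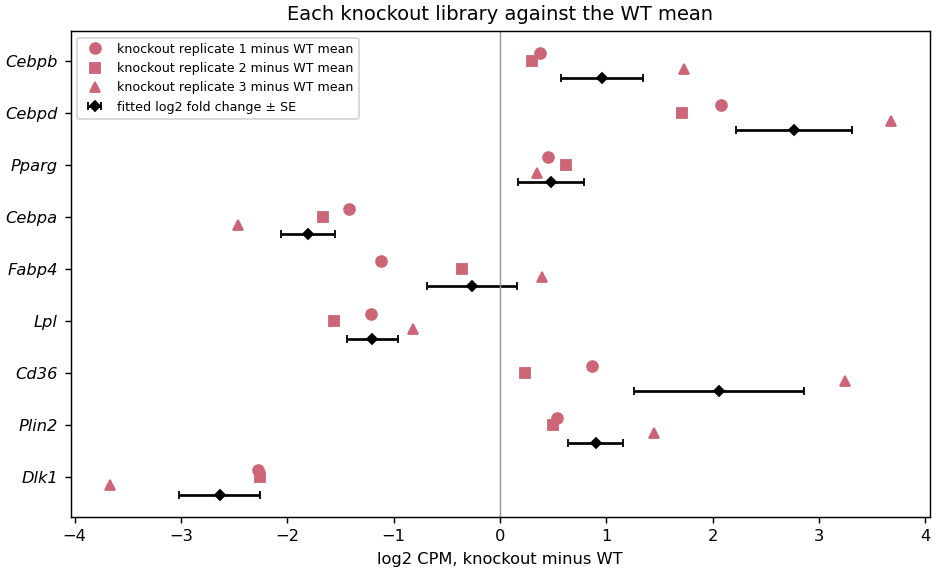
Difference in log2 CPM (prior of 2 counts) between each knockout library and the WT mean, with circles, squares and triangles for knockout replicates 1, 2 and 3, and the fitted log2 fold change with its SE as a black diamond. Cebpa, Lpl and Dlk1 lie left of 0 in all 3 knockout libraries, Cebpb, Cebpd, Pparg, Cd36 and Plin2 lie right of it, and Fabp4 spans it.

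The balance among the 3 C/EBP members was read from the authors' FPKM, a level per length. Of their summed FPKM, Cebpa made up 18.1%, 15.6% and 18.9% in WT libraries and 5.4%, 4.83% and 0.895% in knockout libraries. Cebpd made up 2.23%, 1.81% and 2.83% in WT libraries and 8.06%, 6.84% and 7.7% in knockout libraries. Cebpb was the most abundant in every library, at 78.3% to 82.6% of the sum in WT and 86.5% to 91.4% in knockout libraries. The ratio of Cebpb to Cebpa was 4.41, 5.31 and 4.14 in WT libraries and 16, 18.3 and 102 in knockout libraries. All knockout libraries lay above the WT range. For Cebpb, knockout replicate 3 had 199.2 FPKM beside 166.3 CPM, while in every other library its FPKM was below its CPM. The value of 102 thus holds for FPKM, and the ratio was not computed from the counts. The summed FPKM was 56.7 to 59.7 in WT libraries, 69.8 and 64.3 in knockout replicates 1 and 2, and 218 in knockout replicate 3. These shares describe the same libraries as the counts and were given no test.

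**Figure D3:**
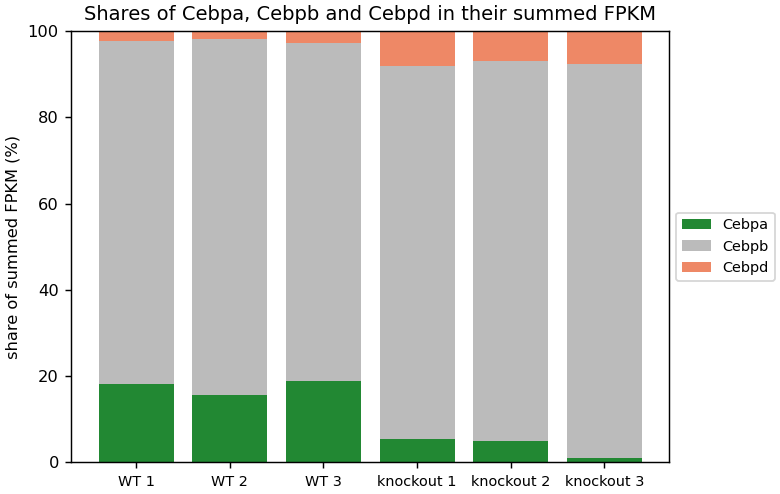
Share (%) of Cebpa (green), Cebpb (grey) and Cebpd (orange) in the summed FPKM of the 3 genes, as 1 stacked bar per library. The green part is 15.6% to 18.9% in the WT bars and 0.895% to 5.4% in the knockout bars.

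Among the other C/EBP genes only Ddit3 passed. Ddit3 (CHOP, a C/EBP protein of the stress response that dimerizes with other C/EBP proteins and blocks their binding) had 18.6, 14.4 and 19.3 CPM in WT libraries and 29.9, 36.8 and 39.6 CPM in knockout libraries. It rose in knockout cells by a log2 fold change of 1.02 ± 0.16 (SE, adjusted p = 0.00652 by edgeR's test). Cebpg and Cebpz had log2 fold changes of -0.09 and -0.10 and did not pass (adjusted p = 0.352 and 0.581), and Cebpe was under the floor of 3 counts in every library and was not tested. Thus of 7 C/EBP genes, members included, 6 were tested, with a median of 0.44. With all libraries 1 rose, Ddit3, and 1 fell, Cebpa, beside 4.98% and 4.89% of all genes. Without knockout replicate 3 there were 3 higher, Cebpb, Cebpd and Ddit3, and 1 lower, Cebpa. The shares of all genes in that fit were 16.4% and 16.7%.

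None of the 5 tested PPAR and RXR receptors passed, with a median of -0.27. Rxra, the usual partner of PPARγ, came nearest, at 120, 120 and 119 CPM in WT libraries and 94.5, 98.2 and 93.5 CPM in knockout libraries (log2 fold change -0.33 ± 0.06 SE, adjusted p = 0.0110 by edgeR's test), and without knockout replicate 3 it passed (adjusted p = 0.000991). The ubiquitous receptor Ppard had a mean of 51.6 CPM in WT and 62.1 CPM in knockout cells (log2 0.27, adjusted p = 0.0736), and Rxrb had a log2 fold change of -0.27 (adjusted p = 0.0631). Ppara was low, at 0.902 and 0.571 CPM (log2 -0.65, adjusted p = 0.184), and Rxrg had too few counts to be tested. Of 15 PPARγ coregulators none passed with all libraries, 12 had a negative log2 fold change and the median was -0.20. Among the most abundant was the corepressor Ncor1 (log2 -0.32, adjusted p = 0.182).

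The lipid genes that mark adipocytes did not move as a group. Lpl (lipoprotein lipase, which releases fatty acids from circulating triglyceride, chromosome 8, 68880491 to 68907448) had 22.1, 35.0 and 26.2 CPM in WT libraries and 11.7, 9.16 and 15.4 CPM in knockout libraries. All knockout libraries were below WT and their mean was 43.5% of that in WT. The fitted log2 change was -1.20 ± 0.24 (SE, adjusted p = 0.0130 by edgeR's test), over the threshold for a call. Without knockout replicate 3 it was -1.41 and passed (adjusted p = 0.000213, with a range of 4.53e-05 to 0.0521 over all alternatives).

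Plin2 (perilipin 2, the coat protein of lipid droplets in most cell types, chromosome 4, 86648386 to 86670060) went the other way. Its level was 96.6, 103.8 and 111.6 CPM in WT libraries and 150.9, 146.5 and 284.2 CPM in knockout libraries. Knockout replicates 1 and 2 were above each WT library at a mean of 1.43-fold, and knockout replicate 3 was at 2.73-fold. The log2 fold change was 0.90 ± 0.26 (SE, adjusted p = 0.0387 by edgeR's test) and without knockout replicate 3 it was 0.52 and passed (adjusted p = 0.000147, with a range of 0.000147 to 0.122 over all alternatives).

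Fabp4 (the fatty acid carrier aP2 of adipocytes and macrophages, chromosome 3, 10204088 to 10208576) was low and overlapped between genotypes. Its WT libraries held 3.09, 2.18 and 2.04 CPM and its knockout libraries 1.05, 1.85 and 3.19 CPM. Knockout replicate 3 was the highest of all 6 libraries and knockout replicate 1 the lowest. The log2 fold change was -0.26 ± 0.43 (SE, adjusted p = 0.656 by edgeR's test) and turned to 0.05 without knockout replicate 1 (adjusted p = 0.920). Without knockout replicate 3 it was -0.74 (adjusted p = 0.102, with a range of 0.102 to 0.941 over all alternatives).

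Cd36 (the fatty acid translocase of adipocytes, macrophages and endothelial cells, chromosome 5, 17781690 to 17888801) differed mostly in a single library. It had 2.28, 3.89 and 2.85 CPM in WT libraries and 5.44, 3.47 and 28.7 CPM in knockout libraries. Knockout replicate 3 was 6.44 times the mean of the other knockout libraries, and knockout replicate 2 lay within the WT range. The log2 fold change of 2.06 ± 0.80 (SE, adjusted p = 0.0899 by edgeR's test) did not pass, and it was 0.57 without knockout replicate 3 (adjusted p = 0.127, with a range of 0.0109 to 0.223 over all alternatives).

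The summed macrophage markers were also at their highest in knockout replicate 3, and their part in the Cd36, Fabp4 and Plin2 values was not tested. The 14 markers summed to 68.8, 146 and 123 CPM in WT libraries and to 114, 73.8 and 285 CPM in knockout libraries, and 0 of 14 were at 0 throughout. None of the 13 tested passed, with a median log2 fold change of 0.28, or -0.37 without knockout replicate 3. Lyz2 (lysozyme) made up much of the sum at 25.5, 58.0 and 46.6 CPM in WT and 49.1, 26.4 and 159 CPM in knockout libraries. Mrc1 (the mannose receptor) was instead lowest in that library, with 5.80, 17.8 and 13.8 CPM in WT and 11.3, 7.93 and 1.91 CPM in knockout libraries. Named after its values were seen, Adgre1 (the macrophage antigen F4/80) had 1.76, 4.27 and 3.13 CPM in WT libraries and 4.06, 2.56 and 31.9 CPM in knockout libraries. Cd14 (25.4 CPM), Csf1r (12.2 CPM), Fcer1g (10 CPM) and Itgam (6.33 CPM) were also highest in knockout replicate 3. So were Ptprc (4.91 CPM), Tyrobp (4.67 CPM) and Aif1 (1.52 CPM). The remaining markers did not follow. Knockout replicate 3 was within the WT range for Cd68 (8.57 CPM), C1qb (8.91 CPM) and C1qc (6.81 CPM). It was the lowest of all libraries for C1qa (3.71 CPM), as for Mrc1. The 12 endothelial markers had sums of 91.4 to 101 CPM in WT libraries and 111, 102 and 89.2 CPM in knockout libraries. That sum came mostly from Tek and Eng (adjusted p = 0.792 and 0.125), 2 of the 12 markers were at or under 3 counts in every library, and none of the 4 tested passed. Without knockout replicate 3 Egfl7 passed lower (adjusted p = 0.00459). Marker by marker, Eng (53.3 CPM) and Vwf (1.33 CPM) were highest in knockout replicate 3. Tek was instead lowest there, at 30.8 CPM against 46.6 to 58.1 CPM in WT libraries. Pecam1 averaged 0.508 CPM in knockout and 0.0475 CPM in WT libraries. Cldn5 went the other way, from a WT mean of 0.111 CPM to 0 in each knockout library. Both had too few counts to be tested.

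**Figure D4:**
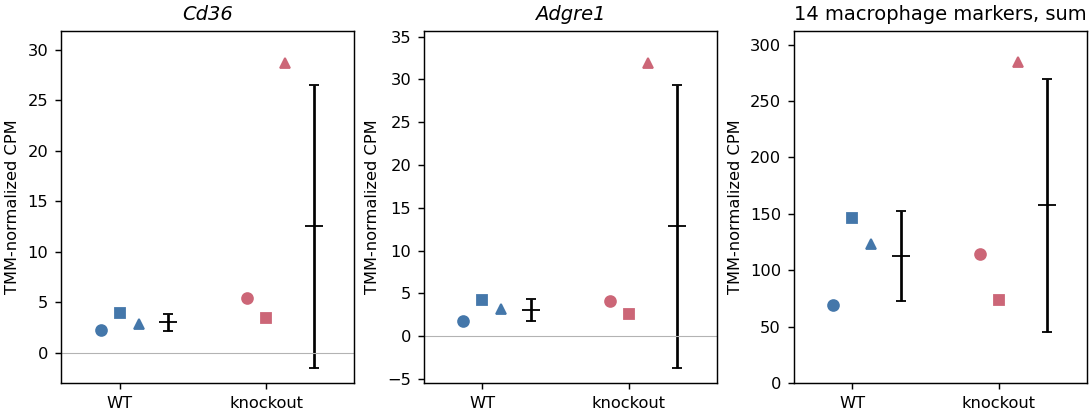
TMM-normalized CPM of Cd36, of the macrophage gene Adgre1 and of the sum of 14 macrophage markers in each WT (blue) and knockout (red) library, with circles, squares and triangles for replicates 1, 2 and 3 and the mean with SD in black. Knockout replicate 3 is the highest point in each panel, at 28.7, 31.9 and 285 CPM.

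Lists of genes that act with these markers also hold members, Plin2 in the droplet list and Fabp4 and Cd36 in the uptake list. The shares called are read against 4.98% of all genes higher and 4.89% lower. Of 9 lipid droplet genes tested, only Abhd5 passed, the activator of the triglyceride lipase ATGL, which rose from 39.0 ± 2.20 to 67.4 ± 12.1 CPM (SD, n = 3, log2 0.79, adjusted p = 0.00842 by edgeR's test). The droplet genes Plin1, Plin5 and Cidea were at or under 3 counts in every library. Around LPL, 1 of 7 tested genes passed, Sel1l, which is needed for the enzyme to leave the endoplasmic reticulum (157 to 209 CPM, log2 0.41, adjusted p = 0.00960). Among 15 fatty acid binding and uptake genes Acsl4, an acyl-CoA synthetase, rose from 42.0 ± 3.53 to 107 ± 35.1 CPM (log2 1.35, adjusted p = 0.00782), and the lipoprotein receptor Scarb1 fell from 71.3 ± 3.53 to 46.1 ± 2.51 CPM (log2 -0.63, adjusted p = 0.00394). In the fit without knockout replicate 3, 16.4% of all genes were higher and 16.7% lower. There the droplet list had 3 genes higher, the member Plin2 among them, and 1 lower. The uptake list had 2 higher and 2 lower, with no member among them.

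Several defining genes of the mature adipocyte had almost no counts. The adipokine genes Adipoq and Lep, as well as Plin1, were at or under 3 counts in all 6 libraries, and 17 of the 25 listed genes could be tested. Of those, 1 passed, near the share of all genes. It was Me1, the malic enzyme that supplies NADPH for fatty acid synthesis, which rose from 98.1 ± 1.96 to 153 ± 13.9 CPM (SD, n = 3, log2 0.64, adjusted p = 0.00443 by edgeR's test). The median of the tested genes was 0.32. Without knockout replicate 3, 3 rose and 2 fell, against 16.4% and 16.7% of all genes.

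Dlk1 had the largest fall of the members. It lies on chromosome 12, 109452823 to 109463336, in an imprinted cluster. Its level was 55.9, 83.8 and 84.0 CPM in WT libraries and 15.1, 15.2 and 5.67 CPM in knockout libraries. The lowest WT library was still well above the highest knockout library, and knockout replicate 3 was the lowest of all. The mean fell from 74.6 ± 16.2 to 12.0 ± 5.48 CPM (SD, n = 3), a log2 fold change of -2.64 ± 0.38 (SE, adjusted p = 0.00585 by edgeR's test). The call held without knockout replicate 3 (-2.30, adjusted p = 4.86e-06). It was lost when any other library was left out, with adjusted p-values of 0.0138 to 0.0371 and log2 fold changes of -2.84 to -2.54. In those fits only 1 to 63 of all genes were called lower, beside 655 with all libraries. The unadjusted p of Dlk1 in them was 0.000599 to 0.00159 by edgeR's test.

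A neighbour of Dlk1 also fell. Begain, which lies beside Dlk1 on chromosome 12, had 12.9, 16.7 and 14.7 CPM in WT libraries and 3.96, 4.37 and 3.14 CPM in knockout libraries, with a log2 fold change of -1.95 ± 0.18 (SE, adjusted p = 0.00231 by edgeR's test). The list of 11 tested genes held Dlk1 itself and genes related to it by sequence, signalling or locus. Dlk1 and Begain were the only 2 of them that passed with all libraries, and the list's median was -0.011. Named after their values were seen, Rtl1 of the same cluster had a log2 fold change of -0.90 (adjusted p = 0.0261), Dio3 of that cluster had 0.94 (adjusted p = 0.238), and Dlk2, the paralogue elsewhere in the genome, had 1.01 (adjusted p = 0.0146). The list without knockout replicate 3 had 3 genes higher, Dlk2 among them, and 3 lower, Dlk1 and Begain among them. The shares of all genes in that fit were 16.4% and 16.7%.

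Regulators upstream of the members were called in both directions. Of 16 transcription factors that promote adipogenesis, 1 rose and 2 fell, 11 had a negative log2 fold change and the median was -0.37. Klf6 rose from 104 ± 9.32 to 198 ± 14.9 CPM (SD, n = 3, log2 0.92, adjusted p = 0.00315 by edgeR's test), and it is known to repress Dlk1 in preadipocytes. Ebf1, an early B-cell factor, fell from 43.8 ± 4.81 to 26.1 ± 1.30 CPM (log2 -0.75, adjusted p = 0.00520) and the zinc finger gene Zfp467 from 18.9 ± 0.62 to 11.1 ± 0.95 CPM (log2 -0.77, adjusted p = 0.00487). With knockout replicate 3 left out, 2 of the 16 rose and 7 fell, against 16.4% and 16.7% of all genes.

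Of 16 factors that restrain adipogenesis only Wnt10b passed. Wnt10b, a secreted WNT ligand that keeps preadipocytes undifferentiated, had 1.95, 0.807 and 1.42 CPM in WT libraries and 8.59, 8.74 and 12.5 CPM in knockout libraries. This was a log2 fold change of 2.83 ± 0.34 (SE, adjusted p = 0.00374 by edgeR's test), with all knockout libraries above all WT libraries, knockout replicates 1 and 2 included. The list's median was 0.08, and without knockout replicate 3, 4 of the 16 rose and 4 fell, against the same shares of all genes.

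Preadipocyte and progenitor markers likewise split. Itgb1 (integrin β1) rose from 839 ± 25.5 to 1466 ± 75.4 CPM (SD, n = 3, log2 0.81, adjusted p = 0.00279 by edgeR's test) and Anxa3 (annexin A3) from 61.2 ± 0.75 to 143 ± 37.8 CPM (log2 1.23, adjusted p = 0.00580). Thy1 (CD90), which is also among the 12 fibroblast markers and was the only one of those to pass with all libraries, fell from 180 ± 19.9 to 83.7 ± 5.19 CPM (log2 -1.11, adjusted p = 0.00251). The other 11 of 14 did not pass, and the median was -0.13. Without knockout replicate 3, 4 rose and 4 fell, against 16.4% and 16.7% of all genes. In that fit 3 fibroblast markers fell, Thy1, Pdgfra (adjusted p = 2.02e-05) and Lum (adjusted p = 0.000594).

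**Figure D5:**
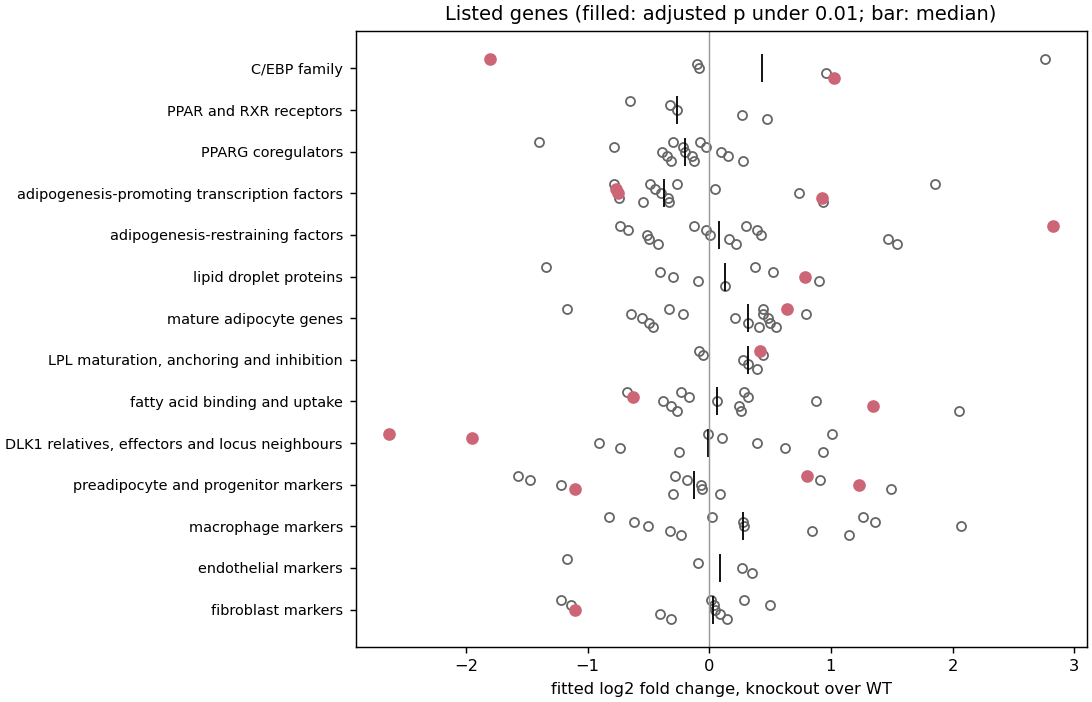
Fitted log2 fold change (knockout over WT) of every tested gene in 14 lists of related genes and cell type markers, filled in red where the adjusted p was under 0.01, with a black bar at each list's median. List medians lie between -0.37 and 0.44, and the red points lie on both sides of 0.

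Levels per length placed the members in order within each genotype. In WT libraries the mean FPKM was 58.9 ± 5.12 for Plin2, 55.2 ± 12.8 for Dlk1 and 46.9 ± 2.49 for Cebpb (SD, n = 3), and Dlk1 overlapped both of its neighbours in that order. Cebpa followed at 10.2 ± 0.81, Lpl at 6.59 ± 1.52 and Fabp4 at 3.64 ± 0.86. Cd36 at 1.48 ± 0.37 and Cebpd at 1.33 ± 0.26 overlapped each other, and Pparg was last at 0.697 ± 0.29, while the other neighbours in the order did not overlap.

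In knockout libraries Plin2, at 111 ± 45.4 FPKM, and Cebpb, at 105.5 ± 81.2, were the highest and overlapped. Dlk1 had dropped to 9.04 ± 4.77 and overlapped Cebpd at 8.93 ± 6.82 and Cd36 at 5.52 ± 5.79. Fabp4 at 3.08 ± 1.56, Cebpa at 2.94 ± 0.92 and Lpl at 2.87 ± 0.66 could not be told apart by their spread, and Pparg was again last at 0.821 ± 0.10. Pparg was thus the lowest member in mean FPKM in both genotypes.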

How the data were processed

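RNA-seq of 3 WT and 3 Rnf20-/- libraries was analysed. By the study's methods, paired-end reads of stranded mRNA libraries were sequenced on an Illumina instrument. Per the labels, HISAT2 2.1.0 and Cufflinks 2.1.1 were used with GRCm38 (mm10). The authors deposited raw read counts per gene, whose counting program and use of strand were not given in the sources used here, and a table of FPKM values for 12633 genes, normalized by the authors for gene length and depth. Deposited columns of the authors' own fold changes and false discovery rates were not used.

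Counts were tested with edgeR 4.0.16 in R 4.3.3 (filterByExpr, TMM, glmQLFit and glmQLFTest on genotype, no covariate), and p-values were Benjamini-Hochberg adjusted over 13386 genes at a threshold of 0.01. CPM are TMM-normalized, log2 CPM use a prior of 2 counts, and SE is the log2 fold change divided by the root of F. Depth of 20545442 to 21746898 counts puts a floor of 3 counts at 0.142 to 0.143 CPM. Alternatives were RLE or library-size scaling, other filters, DESeq2 1.42.0, a replicate block, a threshold of 0.05 and each library left out, and for the lists (added after seeing the data) the fit without knockout replicate 3. The script was tested on simulated data.

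The members and the 14 lists were chosen with earlier results of these data known, so no list count is independent support. Named genes were the members, Rnf20, the C/EBP, PPAR and RXR genes, up to 3 genes per list and direction with the largest log2 fold change among those passing (where none passed, the 2 tested genes with the most counts), and the 3 genes most like Pparg and Dlk1 in centred log2 CPM. Of these, 1 gene is not reported here. Gene positions come from GENCODE M21 (GRCm38) and promoters from RefSeq (GRCm38.p6).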

Additional observations from a re-analysis of the deposited data

How the results depend on the processing

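Directions of the 9 members were the same under all 12 alternatives each, except Fabp4, which turned to 0.054 without knockout replicate 1. Calls depended on the libraries and the test, and the cause was not tested. The log2 fold changes with 1 library left out ranged from 0.34 to 1.21 for Cebpb, 1.91 to 3.10 for Cebpd, -2.03 to -1.55 for Cebpa, -1.41 to -1 for Lpl, 0.52 to 1.07 for Plin2, -2.84 to -2.30 for Dlk1, 0.57 to 2.51 for Cd36, 0.28 to 0.68 for Pparg and -0.74 to 0.054 for Fabp4. By DESeq2, Cebpd (2.78), Lpl (-1.19) and Plin2 (0.91) passed with adjusted p-values of 1.82e-07, 4.53e-05 and 0.00246. Members passing higher numbered 2 by DESeq2, 2 at an adjusted p under 0.05 and 0 to 3 with 1 library left out. Members passing lower numbered 3 by DESeq2, 3 at an adjusted p under 0.05 and 0 to 3 with 1 left out.

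Over all genes, 667 were called higher and 655 lower. These counts were 2195 and 2218 at 0.05, 1842 and 1755 by DESeq2, and 0 to 2222 and 1 to 2263 with 1 library left out, where 2356 genes were higher at an unadjusted p under 0.05 without WT replicate 3, the fit with 0. By the study's thresholds, 201 higher and 279 lower genes became 418 and 586 at 0.05, 417 and 565 by DESeq2, and 0 to 300 and 1 to 491 with 1 library left out. Scaling by library size alone gave 510 higher and 858 lower and shifted the median of all genes by -0.06.

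Replicate numbers are shared between genotypes. Deviations of same-numbered libraries had correlations of -0.0656, 0.0366 and 0.0109, and 2 of 6 libraries correlated best with their own number. With 3 libraries per genotype and knockout replicate 3 standing apart, these values cannot decide whether the numbers pair the libraries. With the replicate block Cebpa was -1.85 (adjusted p = 0.0237) and Dlk1 -2.71 (adjusted p = 0.0246). The block left 0 members passing lower and 0 genes called in either direction, by either rule, with 2694 higher and 2858 lower at an unadjusted p under 0.05 by edgeR.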

Other observations

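Genes whose pattern over the 6 libraries was most like that of Pparg or Dlk1 were ranked by the root mean square difference in log2 CPM, each gene centred on its own mean. The ranking used the same libraries as the test. Fold changes and p-values of the genes it picked therefore follow from the choice and are no separate result. For Dlk1 these were Nwd2 (0.134), Rnf112 (0.143) and Camkv (0.157). Rnf112, a RING finger protein gene, had 2.42, 2.94 and 2.80 CPM in WT libraries and 0.430, 0.522 and 0.143 CPM in knockout libraries, the last at the floor of 3 counts (log2 fold change -2.88, adjusted p = 0.00620 by edgeR's test). Nwd2 and Camkv had WT levels of 0.761 to 1.23 CPM and 0.856 to 1.71 CPM, were at 0 counts in knockout replicate 3, and did not pass (adjusted p = 0.0140 and 0.0168).

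For Pparg the nearest were a predicted locus with no gene name (0.124), B3gnt4 (0.127) and Lama1 (0.133). Lama1, a laminin chain gene, had 9.41, 14 and 11 CPM in WT libraries and 13.9, 14.6 and 12.6 CPM in knockout libraries and did not pass (adjusted p = 0.260). B3gnt4 was below 1 CPM in all 6 libraries.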
